A study of Homo sapiens with 27 samples.

Results

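As cultures of U2OS cells, a human osteosarcoma line, filled the plate and grew past confluence, 118 of the 12884 genes expressed throughout in the control line changed direction at confluence. Of these, 66 were peak genes, highest in the confluent cultures, and 52 were dip genes, lowest there. The members were chosen on the control libraries alone. A gene was taken when its mean CPM (its count scaled to the total of counts on genes of the library) was at least 2 at every stage and its log2 change from the subconfluent to the confluent stage and that from the confluent to the overconfluent stage had opposite signs and were both at least 0.5 in size. The control values below therefore describe how the genes were chosen and carry no test. All tests were made in the knockdown libraries, which the choice did not use.

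The poly(A) RNA of 3 stable lines was sequenced at 3 stages of culture expansion, with 3 libraries for each of the 9 groups. The control carried the pLKO.1 vector without an shRNA (the labels call it WT), and MMP2sh1 (label 23) and MMP2sh2 (label 26) each carried the same vector with a different shRNA, a short hairpin RNA, against MMP2, which encodes the matrix metalloproteinase MMP-2. Cells were plated subconfluent (day −2, labelled proliferating), were confluent 2 days later (day 0) and overconfluent after a further 2 days (day +2). Each shRNA was represented by 1 stable line, so the shRNA and the line cannot be told apart, and all lines carried the vector and had been through puromycin selection.

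The 27 libraries held 33580129 to 59374327 counts on genes, and replicate libraries of a group correlated at 0.993 to 0.996 (Pearson's r of log2 CPM across 19118 genes, which are not independent). MMP2 itself, the check of the labels, was at 216 to 518 CPM in the control libraries, 131 to 304 in MMP2sh2 and 32.8 to 103 in MMP2sh1, and at each day the ranges of the 3 lines did not overlap. Of the 10 osteosarcoma and mesenchymal markers, VIM, COL1A1, SPARC, CDH2 and RUNX2 were expressed in every library. RUNX2 was at 29.0 to 66.8 CPM and ALPL at 0.39 to 6.74 CPM. COL1A2, SP7, BGLAP and IBSP stayed under 1 CPM in all 27. The list was thus mixed, and the label osteosarcoma rests on part of it. Of the 5 blood markers, 1 exceeded 1 CPM in any library (PTPRC, highest 1.46). Of the 5 epithelial markers, 3 did, namely CLDN4 at 22.1 to 52.5 CPM, EPCAM at 3.21 to 6.92 and CDH1 at up to 2.48. Of the 3 endothelial markers in the counts, 1 did, VWF at 1.32 to 4.87 CPM.

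Crowding changes what a cell meets: growth factors and nutrients are used up, neighbours touch on all sides, and secreted factors and matrix collect in the medium. Many signalling pathways respond in pulses, because they induce their own inhibitors. NF-kB, a family of transcription factors that includes RelB, is held in the cytoplasm by IkB proteins and, once released, switches on cytokine genes together with the genes of its own brakes.

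In the control, the peak genes rose by a median of 0.75 on the log2 scale from day −2 to day 0 and then fell by 0.63, and the dip genes fell by 0.65 and then rose by 0.81. The turn was measured by the bend, the log2 level on day 0 minus the mean of the log2 levels on days −2 and +2, which is positive for a peak and negative for a dip. The median bend in the control was 0.72 for the peak genes and −0.79 for the dip genes, beside 0.03 for all 12884 expressed genes. The net change from day −2 to day +2 had a median of 0.05 for the peak genes and 0.10 for the dip genes. Its range was wide, from −1.27 to 0.77 in the peak genes and from −1.06 to 1.96 in the dip genes. In 58 of the 66 peak genes and 49 of the 52 dip genes, all 3 confluent control libraries lay beyond the other 6.

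**Figure D1:**
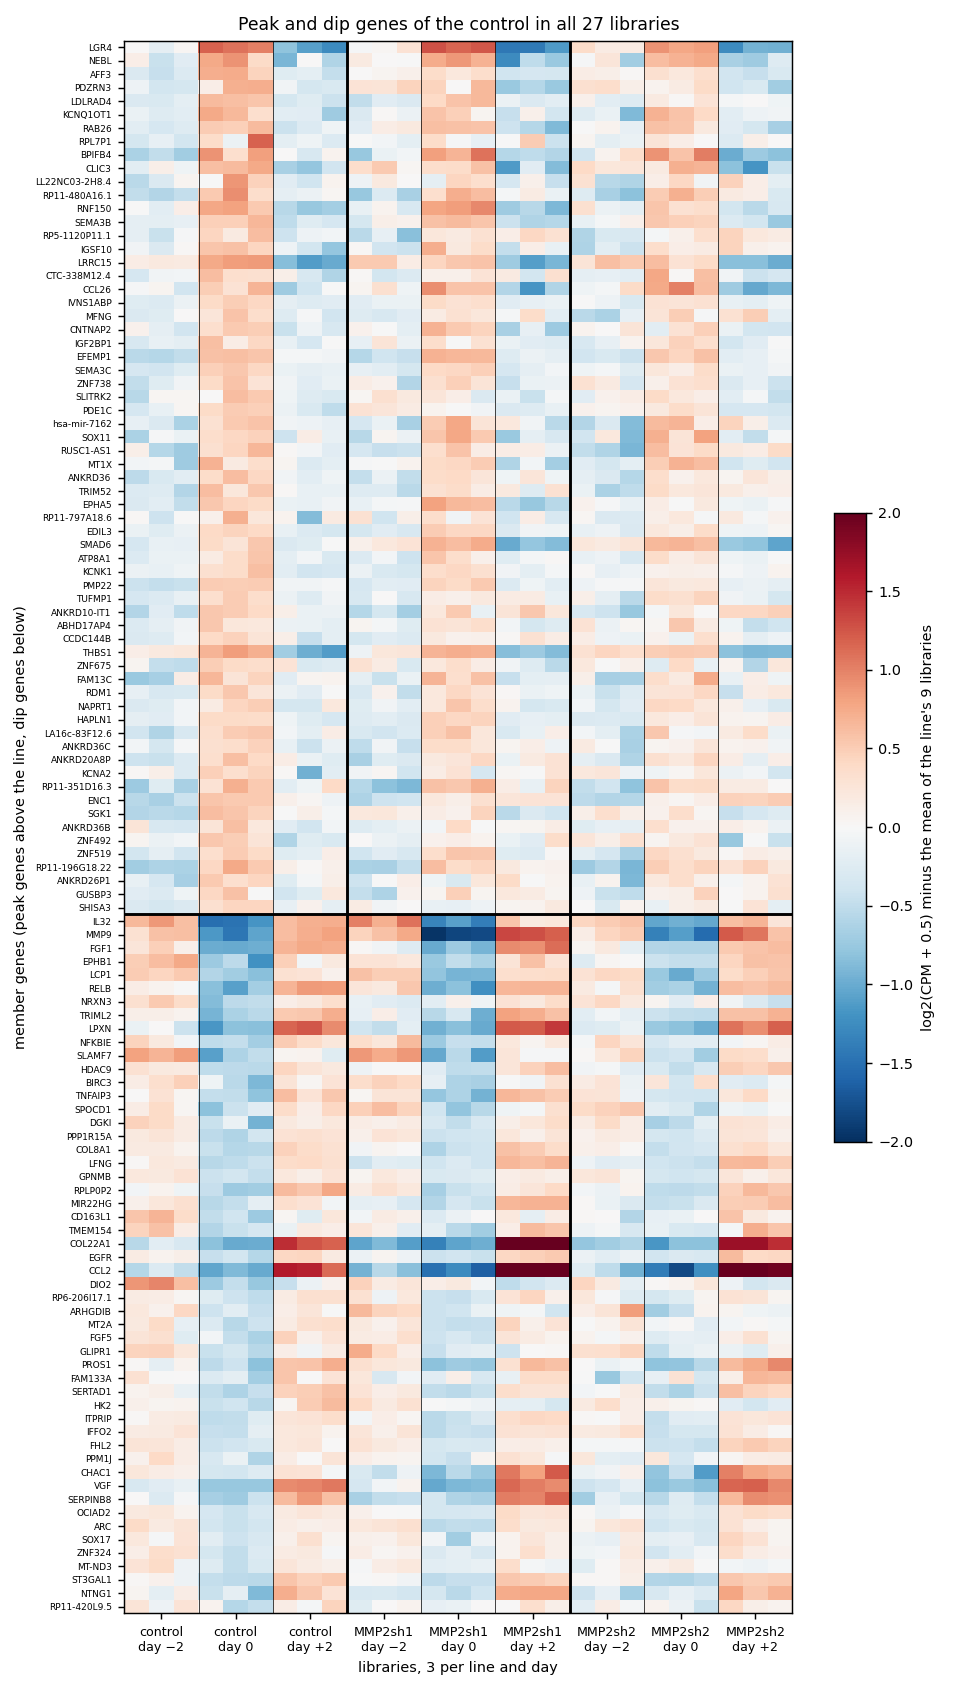
Each row is a peak gene (above the thick line, n = 65 of 66) or a dip gene (below it, n = 52), each column 1 of 27 libraries grouped by line and day, and the colour is log2(CPM + 0.5) minus the mean of the same line's 9 libraries. The control columns show the turn on which the genes were chosen, and in MMP2sh1 and MMP2sh2 most of the rows keep the same colour on day 0.

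The thresholds cut through a continuous range. The peak genes nearest the limit were SHISA3, whose smaller step was 0.51 in size, and the pseudogene GUSBP3 at 0.51, while ENO3 (0.50) and NPFFR1 (0.49) fell just short. Among the dip genes, RP11-420L9.5 (0.50) and NTNG1 (0.51) were just inside, and RP11-611L7.1 (0.49) just outside. When each of the 9 control libraries was left out in turn, between 62 and 77 genes met the peak rule and between 48 and 61 the dip rule, and 34 of the 66 and 27 of the 52 members met it every time. With TMM scaling in place of total counts the rule gave 59 peak and 65 dip genes, and with median-of-ratios scaling 56 and 67. Both included all 52 dip members. Of the 66 peak members, 58 were kept with TMM scaling and 54 with median-of-ratios scaling.

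The dip genes held 5 of the 13 expressed genes on a list of NF-kB targets and chemokines, beside 52 of all 12884 expressed genes. These were RELB, NFKBIE, TNFAIP3, BIRC3 and CCL2. The peak genes held 1 of the 13, CCL26, beside 66 of the 12884. The list was drawn up with earlier results of these data known, so the count is a description and not a test. No other of the 30 lists examined had more than 2 dip genes. RELB encodes a subunit of NF-kB itself, NFKBIE the inhibitor IkB-epsilon, TNFAIP3 the ubiquitin-editing enzyme A20 that ends NF-kB signalling, BIRC3 an inhibitor of apoptosis in the same pathway, and CCL2 a chemokine that attracts monocytes. The member with the most negative bend in the control was IL32, which encodes an inflammatory cytokine, whereas in both knockdown lines the bends of CCL2 and MMP9 were more negative than that of IL32.

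RELB (chromosome 19, 45504719 to 45541450, plus strand, GRCh37) stood at 18.2, 17.3 and 16.3 CPM on day −2, 8.98, 7.48 and 10.1 on day 0 and 26.4, 29.9 and 29.6 on day +2 in the 3 control libraries of each day. In MMP2sh1 it was at 22.1, 21.3 and 27.3 CPM on day −2, 9.16, 10.3 and 7.65 on day 0 and 29.6, 29.8 and 29.99 on day +2. In MMP2sh2 the values were 23.6, 20.1 and 25.9 CPM on day −2, 12.6, 13.1 and 10.5 on day 0 and 31.96, 30.995 and 32.4 on day +2. The day 0 libraries were the lowest 3 in each line, without overlap, and in each line the libraries of day +2 were above those of day −2. The bend of RELB was −1.59 (standard error 0.10, edgeR adjusted p = 8.3e-12) in MMP2sh1 and −1.18 (standard error 0.09, edgeR adjusted p = 8.7e-12) in MMP2sh2, with both steps called in each line.

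The 2 inhibitors dipped with it. TNFAIP3 (chromosome 6, 138188351 to 138204451, plus strand) was at 8.81, 10.8 and 8.94 CPM on day −2, 6.14, 6.06 and 4.77 on day 0 and 13.6, 10.7 and 12.8 on day +2 in the control, and its bend was −1.28 (standard error 0.12, edgeR adjusted p = 7.1e-09) in MMP2sh1 and −0.61 (standard error 0.11, edgeR adjusted p = 8.8e-05) in MMP2sh2. NFKBIE (chromosome 6, 44225903 to 44233525, minus strand) was at 20.2, 16.8 and 14.003 CPM on day −2, 10.1, 10.3 and 8.95 on day 0 and 20.96, 18.997 and 17.2 on day +2 in the control. Its bend was −0.92 (standard error 0.10, edgeR adjusted p = 2.2e-07) in MMP2sh1 and −0.41 (standard error 0.10, edgeR adjusted p = 0.0017) in MMP2sh2, and both of its steps, like both of TNFAIP3, were called in each line. For each of these genes the day 0 libraries of a line again lay below its other 6.

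IL32 (chromosome 16, 3115298 to 3132193, plus strand) fell from 22.3, 26.2 and 21.6 CPM on day −2 to 4.65, 4.74 and 5.96 on day 0 in the control and stood at 21.97, 23.3 and 23.7 on day +2. In MMP2sh1 it was at 21.3, 17.2 and 22.5 CPM on day −2, 3.82, 4.59 and 3.66 on day 0 and 15.5, 11.95 and 12.2 on day +2. In MMP2sh2 it was at 21.7, 22.9 and 23.8 CPM on day −2, 7.47, 7.93 and 7.58 on day 0 and 24.6, 25.8 and 18.9 on day +2. No day 0 library overlapped with the other days, and in MMP2sh1 alone all 3 libraries of day +2 remained below those of day −2. The bend was −2.07 (standard error 0.13, edgeR adjusted p = 4.8e-12) in MMP2sh1 and −1.59 (standard error 0.10, edgeR adjusted p = 5.2e-14) in MMP2sh2.

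CCL2 (chromosome 17, 32582293 to 32584227, plus strand) had a different shape, a small fall followed by a large rise. The control libraries held 5.32, 6.66 and 5.69 CPM on day −2, 3.74, 4.21 and 3.83 on day 0 and 25.5, 24.7 and 18.5 on day +2. The MMP2sh1 libraries held 4.42, 5.96 and 4.80 CPM on day −2, 2.86, 3.47 and 2.56 on day 0 and 45.5, 45.1 and 42.3 on day +2, and MMP2sh2 6.22, 5.09 and 3.59 CPM on day −2, 2.54, 1.78 and 2.89 on day 0 and 33.7, 33.8 and 30.2 on day +2. The second step was 3.89 (standard error 0.10, edgeR adjusted p = 9.5e-19) in MMP2sh1 and 3.70 (standard error 0.13, edgeR adjusted p = 1.4e-19) in MMP2sh2, against a first step of −0.85 (standard error 0.19, edgeR adjusted p = 0.0013) and −1.11 (standard error 0.22, edgeR adjusted p = 0.00032). Its bends, −2.38 in MMP2sh1 and −2.41 in MMP2sh2, thus mostly reflect day +2.

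BIRC3 (chromosome 11, 102188215 to 102210134, plus strand) was the 1 gene of these 5 whose dip was called in a single knockdown line. The control values were 4.75, 5.48 and 6.09 CPM on day −2, 3.96, 2.79 and 2.05 on day 0 and 5.21, 4.39 and 5.26 on day +2, and MMP2sh1 had 5.75, 6.27 and 5.97 CPM on day −2, 3.86, 2.69 and 2.62 on day 0 and 4.41, 4.16 and 5.55 on day +2. MMP2sh2 had 6.15, 6.62 and 4.98 CPM on day −2, 6.48, 4.10 and 7.08 on day 0 and 4.57, 4.38 and 5.26 on day +2, with no low point on day 0. The bend was −0.82 (standard error 0.16, edgeR adjusted p = 0.0004) in MMP2sh1 and 0.14 (standard error 0.15, edgeR adjusted p = 0.57) in MMP2sh2. The difference between the lines, −0.96 (standard error 0.23, edgeR adjusted p = 0.053), did not pass the threshold.

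CCL26, which encodes an eotaxin, a chemokine for eosinophils, went the other way. Its control values were 4.60, 4.84 and 3.44 CPM on day −2, 6.74, 5.82 and 7.79 on day 0 and 2.66, 3.42 and 4.63 on day +2. The bend was 1.28 (standard error 0.23, edgeR adjusted p = 0.00014) in MMP2sh1 and 1.31 (standard error 0.15, edgeR adjusted p = 4.6e-08) in MMP2sh2, although MMP2sh1 held it at low levels (2.002, 3.29 and 0.871 CPM as means of the 3 days).

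**Figure D2:**
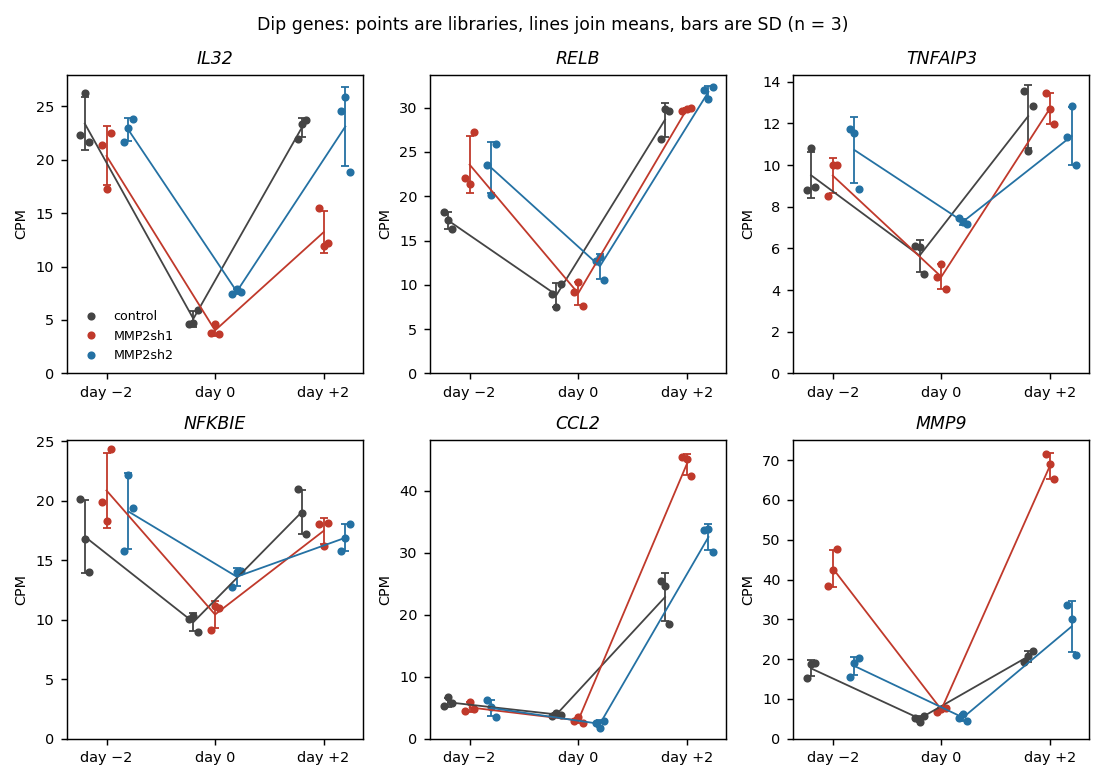
CPM (vertical axes, from 0) of 6 dip genes by day for the control, MMP2sh1 and MMP2sh2; points are libraries, lines join the means of 3 libraries and bars are SD. In each of the 6 genes the day 0 points of every line lie below the points of days −2 and +2 of that line, while CCL2 and, in MMP2sh1, MMP9 rise furthest on day +2.

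The other genes of the list were examined in the knockdown lines too. Here and for the other lists, a called dip or peak is a called bend of that sign, which a gene without a turn can also have. Of its 16 tested genes that are not members, 8 had a called dip in MMP2sh1 (IL8, IL11, IL1A, NFKBIA, NFKB1, NFKB2, TRAF1 and PTGS2) and none a called peak. In MMP2sh2 there were 4 called dips (IL8, CCL20, NFKBIA and PTGS2) and 1 called peak (TNFRSF9, which encodes a T cell costimulatory receptor). Not all of these turned. TNFRSF9 fell throughout in MMP2sh2, with means of 7.77, 4.75 and 1.03 CPM on the 3 days. PTGS2 rose throughout in MMP2sh1 (0.933, 1.24 and 5.67 CPM). NFKBIA in MMP2sh2 fell and then stayed level (35.4, 28.1 and 28.2 CPM). The share of all tested genes with a called dip was 12.8% in MMP2sh1 and 12% in MMP2sh2. The median bend of these 16 genes was −0.30 and −0.12, beside 0.02 and 0.01 for all genes tested. NFKB2, which encodes the partner of RelB, was at a mean of 73.0, 58.6 and 82.1 CPM on the 3 days in the control and had a bend of −0.44 in MMP2sh1 (standard error 0.06, edgeR adjusted p = 2.3e-06), and of −0.11 in MMP2sh2 (standard error 0.06, edgeR adjusted p = 0.25). IL8, IL1A and CCL20 were below 3 CPM on average in every group. So were TRAF1 on each day in MMP2sh1 and PTGS2 on days −2 and 0 in every line. The dips of these genes therefore rest on few reads.

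Because several of these genes are classical NF-kB targets, the sequence upstream of the start site, as given by RefSeq on GRCh38.p14, is shown for 3 of those with a match. By current symbol, the RefSeq table held a promoter for 36 of the 52 dip genes and 37 of the 66 peak genes. RELB, NFKBIE, CCL2 and MMP9 had no entry and were not searched. The windows of 300 bases, from 250 before to 50 after the start, were searched on both strands with the 10-letter NF-kB consensus. It was present in 4 of the 36 dip promoters (11.1%; IL32, BIRC3, TNFAIP3 and EPHB1), in 2 of the 37 peak promoters (5.41%; PDZRN3 and LDLRAD4), in 6.70% of the 9185 promoters found for expressed genes and in 5.72% of all 27305. The sequences of EPHB1, PDZRN3 and LDLRAD4 are not shown. The 250 bases before the start of the 3 dip genes with a role in this pathway follow, all on the plus strand, with the matches in capitals:
IL32, chr16:3065153-3065402: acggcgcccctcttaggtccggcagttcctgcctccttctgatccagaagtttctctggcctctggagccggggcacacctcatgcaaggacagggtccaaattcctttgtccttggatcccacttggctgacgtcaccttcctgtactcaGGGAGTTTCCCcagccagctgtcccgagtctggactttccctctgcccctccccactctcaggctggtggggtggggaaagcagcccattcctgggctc
BIRC3, chr11:102317234-102317483: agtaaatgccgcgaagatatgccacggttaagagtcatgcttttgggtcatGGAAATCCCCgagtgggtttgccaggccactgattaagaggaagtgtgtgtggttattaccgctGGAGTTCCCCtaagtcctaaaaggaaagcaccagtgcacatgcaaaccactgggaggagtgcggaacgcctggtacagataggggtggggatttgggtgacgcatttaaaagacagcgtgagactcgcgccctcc
TNFAIP3, chr6:137867009-137867258: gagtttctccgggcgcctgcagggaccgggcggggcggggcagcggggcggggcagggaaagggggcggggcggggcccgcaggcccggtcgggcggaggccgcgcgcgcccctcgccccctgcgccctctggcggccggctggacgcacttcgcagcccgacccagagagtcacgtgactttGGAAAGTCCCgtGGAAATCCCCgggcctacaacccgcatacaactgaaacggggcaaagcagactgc
IL32 has 1 stretch in which 2 matches overlap, beginning 99 and 98 bases before the start, BIRC3 has matches beginning 199 and 135 bases before it, and TNFAIP3 at 67 and 55. The AP-1 motif TGANTCA was found in 7 dip promoters (19.4%; TRIML2, LPXN, HDAC9, GPNMB, DIO2, MT2A and SERPINB8) and in 1 peak promoter, beside 4.45% of the promoters of expressed genes and 7.76% of all. The ATF4 motif TGATGNAA was found in 3 dip promoters (8.33%; CD163L1, TMEM154 and CHAC1) and 1 peak promoter, beside 1.54% and 3.67%. These motifs were chosen after the members were known. A match is a description of the letters, and no binding was measured here.

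Other dip genes encode secreted and surface proteins. MMP9, which encodes the gelatinase MMP-9, a close relative of MMP-2, lies on chromosome 20, 44637547 to 44645200, plus strand of GRCh37. It was at 15.4, 18.7 and 18.96 CPM on day −2, 5.27, 4.23 and 5.71 on day 0 and 19.2, 20.8 and 22.02 on day +2 in the control. In MMP2sh1 it was at 38.4, 42.4 and 47.6 CPM on day −2, 6.81, 7.54 and 7.65 on day 0 and 71.4, 69.1 and 65.2 on day +2. In MMP2sh2 it was at 15.6, 18.97 and 20.2 CPM on day −2, 5.21, 6.29 and 4.50 on day 0 and 33.6, 30.01 and 21.1 on day +2. The means of day 0 were 5.07 CPM in the control, 7.33 in MMP2sh1 and 5.33 in MMP2sh2, and the bend was −2.93 (standard error 0.09, edgeR adjusted p = 9.6e-18) in MMP2sh1 and −2.10 (standard error 0.13, edgeR adjusted p = 5.8e-14) in MMP2sh2. The bend was deeper in MMP2sh1, by −0.83 (standard error 0.17, edgeR adjusted p = 0.015).

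FGF1 encodes an acidic fibroblast growth factor. It was at 21.2, 24.9 and 19.2 CPM on day −2, 8.72, 8.57 and 8.78 on day 0 and 28.7, 30.5 and 29.6 on day +2 in the control, and its bend was −1.41 (standard error 0.08, edgeR adjusted p = 1.8e-12) in MMP2sh1 and −0.94 (standard error 0.08, edgeR adjusted p = 2.1e-10) in MMP2sh2. EPHB1, an ephrin receptor that reads contact with neighbouring cells, had control means of 8.98, 3.04 and 6.68 CPM and bends of −1.03 in MMP2sh1 and −0.75 in MMP2sh2, both called. VGF encodes a secreted precursor of neuropeptides and, with 216, 229.7 and 242 CPM on day −2, 158, 158 and 158 on day 0 and 521, 529 and 559 on day +2 in the control, was among the most abundant members. Its bend was −1.45 (standard error 0.07, edgeR adjusted p = 8.5e-14) in MMP2sh1 and −1.21 (standard error 0.06, edgeR adjusted p = 1.3e-16) in MMP2sh2, and like CCL2 it rose well past its starting level. GPNMB (a transmembrane glycoprotein, control means 164, 104 and 161 CPM) and COL8A1 (a short-chain collagen, control means 58.2, 36.3 and 68.4 CPM) dipped and came back in all lines, with called bends of −0.46 in MMP2sh1 and −0.57 in MMP2sh2 and of −0.77 in MMP2sh1 and −0.62 in MMP2sh2.

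A pair of actin-linked genes also dipped. LCP1 encodes L-plastin, an actin-bundling protein best known from leukocytes, and was at 21.1, 20.03 and 21.2 CPM on day −2, 9.61, 8.83 and 7.99 on day 0 and 18.2, 17.9 and 15.6 on day +2 in the control. The values were 52.9, 49.7 and 49.7 CPM on day −2, 20.2, 18.2 and 18.5 on day 0 and 44.7, 44.8 and 45.7 on day +2 in MMP2sh1 and 17.3, 19.01 and 18.6 CPM on day −2, 8.27, 6.75 and 8.34 on day 0 and 18.3, 19.8 and 20.96 on day +2 in MMP2sh2. On day 0 the libraries of each line were its lowest 3, and the bend was −1.37 (standard error 0.06, edgeR adjusted p = 4.7e-14) in MMP2sh1 and −1.30 (standard error 0.10, edgeR adjusted p = 3.7e-12) in MMP2sh2. LPXN, which encodes leupaxin, a paxillin relative of adhesion sites, was at 8.49, 9.41 and 6.86 CPM on day −2, 3.91, 5.11 and 5.02 on day 0 and 21.6, 22.9 and 18.5 on day +2 in the control and had bends of −1.50 in MMP2sh1 and −1.34 in MMP2sh2, both called. FHL2, a LIM domain cofactor at adhesions and in the nucleus, had control means of 126, 83.4 and 121 CPM and bends of −0.53 in MMP2sh1 and −0.67 in MMP2sh2, both called.

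Several dip genes are rapid-response or stress genes. ARC, an immediate early gene, was at 45.8, 39.6 and 41.9 CPM on day −2, 27.2, 25.7 and 26.997 on day 0 and 38.9, 37.5 and 38.5 on day +2 in the control, and its bend was −0.82 (standard error 0.06, edgeR adjusted p = 2.9e-10) in MMP2sh1 and −0.55 (standard error 0.07, edgeR adjusted p = 3.9e-07) in MMP2sh2. PPP1R15A encodes GADD34, which restores translation after stress, and its control values were 49.1, 50.9 and 47.9 CPM on day −2, 29.6, 27.9 and 33.1 on day 0 and 52.5, 53.2 and 51.9 on day +2, with a bend of −0.66 (standard error 0.07, edgeR adjusted p = 2.7e-08) in MMP2sh1 and −0.53 (standard error 0.06, edgeR adjusted p = 6.4e-08) in MMP2sh2. CHAC1, which encodes an enzyme that degrades glutathione and is a target of ATF4, had control means of 6.79, 4.68 and 6.86 CPM. In the knockdown lines it was at 5.90, 4.27 and 15.6 CPM and 8.09, 4.64 and 15.1 CPM, and its bend was −1.22 (standard error 0.14, edgeR adjusted p = 2.3e-07) in MMP2sh1 and −1.26 (standard error 0.14, edgeR adjusted p = 1e-08) in MMP2sh2. All of the day 0 libraries of these 3 genes were below the other 6 of their line.

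The 2 metallothionein members, whose products bind zinc and copper, turned in opposite directions. MT2A (chromosome 16, 56642496 to 56643409, plus strand) was at 648, 733 and 505 CPM on day −2, 468, 383 and 422 on day 0 and 629, 703 and 719 on day +2 in the control, and MT1X (chromosome 16, 56716382 to 56718108, plus strand) at 4.48, 4.52 and 2.68 CPM on day −2, 7.87, 5.40 and 6.11 on day 0 and 4.88, 3.80 and 4.03 on day +2. The bend of MT1X was 0.67 (standard error 0.16, edgeR adjusted p = 0.0023) in MMP2sh1 and 0.98 (standard error 0.14, edgeR adjusted p = 2.2e-06) in MMP2sh2, both called upward, and its rise to day 0 in MMP2sh1, 0.39 (standard error 0.16, edgeR adjusted p = 0.061), did not pass the threshold. MT2A dipped in MMP2sh1, where it was at 589, 550.4 and 612 CPM on day −2, 384, 373 and 376 on day 0 and 703, 557 and 627 on day +2. In MMP2sh2 it was at 584, 615 and 698 CPM on day −2, 567, 593 and 504 on day 0 and 565, 599 and 569 on day +2, where the first step was −0.26 (standard error 0.06, edgeR adjusted p = 0.0034) and the second 0.00 (standard error 0.05, edgeR adjusted p = 0.98). Its bend was −0.72 (standard error 0.06, edgeR adjusted p = 4.7e-10) in MMP2sh1 and −0.14 (standard error 0.06, edgeR adjusted p = 0.068) in MMP2sh2, and the difference between the lines was −0.59 (standard error 0.09, edgeR adjusted p = 0.00042). In MMP2sh2 the bend was called without replicate 1 of day −2 (−0.17, edgeR adjusted p = 0.013) or without replicate 2 of day 0 (−0.19, edgeR adjusted p = 0.027). The metallothionein genes are near-copies of one another, so how reads are divided between them is uncertain.

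The fringe genes, whose enzymes glycosylate Notch receptors, were also divided. LFNG was at 174, 199 and 196 CPM on day −2, 117, 121 and 128 on day 0 and 222, 227 and 215 on day +2 in the control, and its bend was −0.58 (standard error 0.05, edgeR adjusted p = 7.2e-09) in MMP2sh1 and −0.67 (standard error 0.05, edgeR adjusted p = 3.2e-12) in MMP2sh2. The steps to day +2 were 1.01 (standard error 0.05, edgeR adjusted p = 5.1e-14) in MMP2sh1 and 0.99 (standard error 0.05, edgeR adjusted p = 2.5e-15) in MMP2sh2, against first steps of −0.15 (standard error 0.06, edgeR adjusted p = 0.072) and −0.34 (standard error 0.05, edgeR adjusted p = 2.8e-05). MFNG was a weak peak gene with control means of 2.58, 4.04 and 2.48 CPM, and its bend passed the threshold in neither knockdown line (0.35 and 0.40), although in MMP2sh2 it did without replicate 3 of day −2 (0.51, edgeR adjusted p = 0.046). Of the other 14 Notch list genes tested in MMP2sh1, 2 had a called dip and 1 a called peak, and of the 12 tested in MMP2sh2, 2 and none, which for the dips is near the 12.8% and 12% of all tested genes.

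The peak genes were led by LGR4, a receptor for R-spondins that strengthens WNT signalling, on chromosome 11, 27387508 to 27494337, minus strand of GRCh37. It was at 27.7, 24.1 and 28.03 CPM on day −2, 62.7, 58.9 and 55.8 on day 0 and 15.5, 12.6 and 11.1 on day +2 in the control. MMP2sh1 had 19.8, 20.7 and 24.6 CPM on day −2, 49.2, 45.4 and 47.97 on day 0 and 7.18, 7.21 and 8.89 on day +2, and MMP2sh2 28.4, 24.6 and 24.6 CPM on day −2, 41.3, 37.98 and 39.3 on day 0 and 8.88, 11.1 and 10.99 on day +2. In every line the 3 confluent libraries were the highest 3, and day +2 lay below day −2. The bend was 1.83 (standard error 0.08, edgeR adjusted p = 1.5e-14) in MMP2sh1 and 1.26 (standard error 0.07, edgeR adjusted p = 1.5e-14) in MMP2sh2, and the difference between the lines was 0.57 (standard error 0.12, edgeR adjusted p = 0.015). The WNT list held no member.

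Of the 5 peak genes with the highest control levels, 4 encode secreted matrix proteins. THBS1, which encodes thrombospondin-1, was at 561, 584 and 601 CPM on day −2, 816, 908 and 832 on day 0 and 316, 260.0 and 236 on day +2 in the control. In MMP2sh1 it was at 559, 702 and 710.5 CPM on day −2, 965, 993 and 979 on day 0 and 333, 364 and 331 on day +2, with both steps called. In MMP2sh2 it was at 622, 678 and 637 CPM on day −2, 708, 721 and 718 on day 0 and 284, 271 and 274 on day +2, where the rise to day 0, 0.08 (standard error 0.05, edgeR adjusted p = 0.19), did not pass the threshold and the fall after it, −1.43 (standard error 0.04, edgeR adjusted p = 2.2e-21), did. EFEMP1, which encodes fibulin-3, an elastic fibre protein, was at 115, 112 and 118 CPM on day −2, 249, 253 and 246 on day 0 and 162, 162 and 159 on day +2 in the control. It was one of 8 peak genes that met the choosing rule in all 3 lines, and its bend was 0.96 (standard error 0.05, edgeR adjusted p = 7.3e-14) in MMP2sh1 and 0.76 (standard error 0.05, edgeR adjusted p = 1.2e-13) in MMP2sh2. The list of collagens and matrix genes held THBS1 with a peak and COL8A1 with a dip among its 32 expressed genes. Of its other tested genes, 16 of 36 had a called dip and 8 a called peak in MMP2sh1, and 16 and 7 of 35 in MMP2sh2, beside 12.8% and 12% of all tested genes with a called dip and 12.9% and 12.3% with a called peak.

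EDIL3 and HAPLN1 lie next to each other on chromosome 5, with 219698 bases between them, and peaked together. EDIL3, an integrin ligand, was at 427, 397 and 433 CPM on day −2, 618, 640.2 and 618 on day 0 and 423, 386 and 365 on day +2 in the control, and HAPLN1, a link protein that ties proteoglycans to hyaluronan, at 241, 236 and 263 CPM on day −2, 358, 359.6 and 354 on day 0 and 258, 232 and 218 on day +2. The bend of EDIL3 was 0.63 (standard error 0.05, edgeR adjusted p = 1.7e-10) in MMP2sh1 and 0.34 (standard error 0.05, edgeR adjusted p = 2.3e-06) in MMP2sh2. That of HAPLN1 was 0.63 (standard error 0.04, edgeR adjusted p = 7.6e-12) in MMP2sh1 and 0.28 (standard error 0.04, edgeR adjusted p = 8.7e-06) in MMP2sh2, with a difference between the lines of 0.34 (standard error 0.06, edgeR adjusted p = 0.0022). ENC1, an actin-associated protein, was at 224, 210.0 and 244 CPM on day −2, 486, 473 and 474 on day 0 and 352, 340.3 and 306 on day +2 in the control. In the knockdown lines its second step was 0.04 (standard error 0.05, edgeR adjusted p = 0.51) in MMP2sh1 and, upward, 0.32 (standard error 0.04, edgeR adjusted p = 4e-07) in MMP2sh2, and its bends, 0.28 in MMP2sh1 and 0.12 in MMP2sh2, were both called. In MMP2sh2 that call was lost in 4 of the fits that left out 1 library (edgeR adjusted p = 0.064 without replicate 2 of day −2, 0.10 without replicate 1 of day 0, 0.17 without replicate 3 of day 0 and 0.051 without replicate 1 of day +2).

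**Figure D3:**
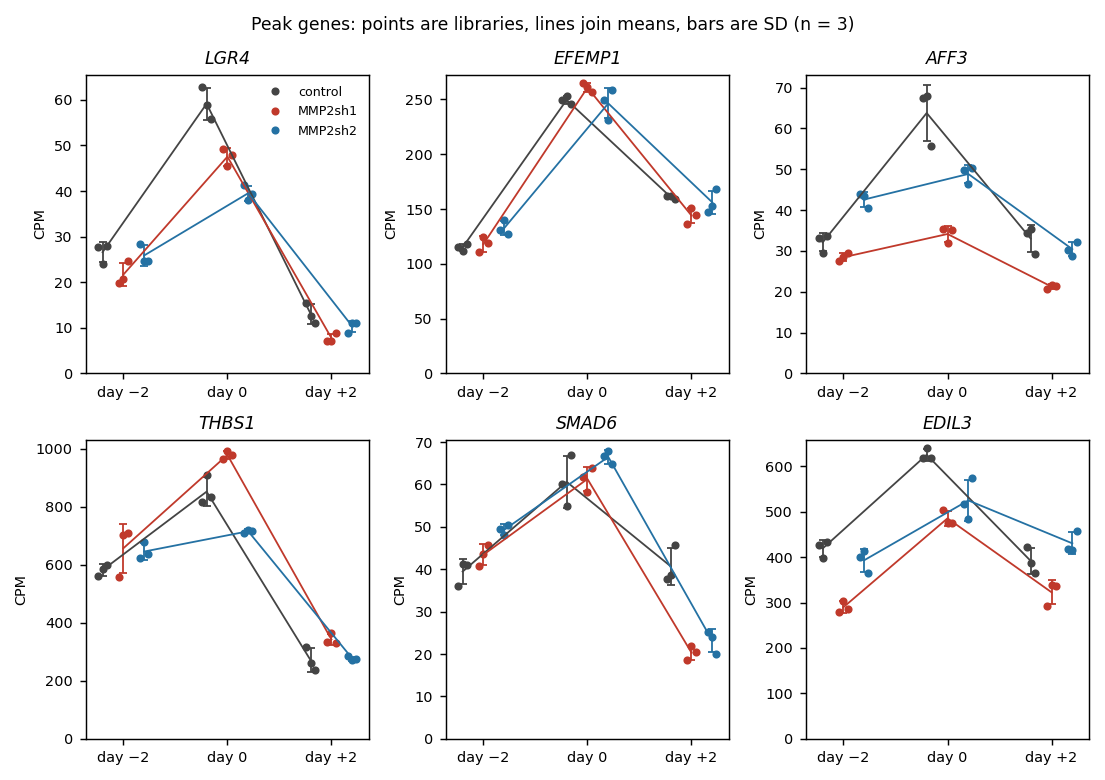
CPM (vertical axes, from 0) of 6 peak genes by day for the control, MMP2sh1 and MMP2sh2; points are libraries, lines join the means of 3 libraries and bars are SD. In all 6 genes the day 0 points of each line are its highest 3. From day −2 to day 0, AFF3 rises little in both MMP2sh1 and MMP2sh2, and THBS1 rises little in MMP2sh2.

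Regulatory genes among the peak genes included AFF3 and SMAD6. AFF3, a component of transcription elongation complexes, was at 33.1, 29.5 and 33.6 CPM on day −2, 67.5, 67.97 and 55.8 on day 0 and 34.4, 35.5 and 29.1 on day +2 in the control. Its bend was 0.43 (standard error 0.07, edgeR adjusted p = 1.8e-05) in MMP2sh1 and 0.43 (standard error 0.06, edgeR adjusted p = 2e-06) in MMP2sh2, and the rise to day 0 was called in neither. SMAD6, an inhibitor of BMP signalling that BMP itself induces, was at 36.1, 41.3 and 40.9 CPM on day −2, 60.1, 54.8 and 66.9 on day 0 and 37.6, 38.7 and 45.7 on day +2 in the control. On day +2 it was at 18.6, 21.9 and 20.4 CPM in MMP2sh1 and 25.2, 24.1 and 20.1 in MMP2sh2. Its bend was 1.00 (standard error 0.06, edgeR adjusted p = 7.9e-12) in MMP2sh1 and 0.97 (standard error 0.06, edgeR adjusted p = 9.5e-14) in MMP2sh2. Of the other 24 genes on the TGF-beta and BMP list, 13 had a called peak and 6 a called dip in MMP2sh1, and 12 and 4 in MMP2sh2. Of all tested genes, 12.9% and 12.3% had a called peak and 12.8% and 12% a called dip.

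Less abundant genes with a called peak were NEBL (nebulette, an actin-binding protein; control means 2.73, 5.33 and 2.14 CPM), RAB26 (a small GTPase of secretory vesicles; 8.80, 15.8 and 8.88 CPM) and BPIFB4 (4.46, 11.8 and 6.69 CPM). Their bends were 1.26 in MMP2sh1 and 1.14 in MMP2sh2 for NEBL, 0.86 in MMP2sh1 and 0.68 in MMP2sh2 for RAB26 and 1.34 in MMP2sh1 and 1.35 in MMP2sh2 for BPIFB4, all called. KCNQ1OT1, a long noncoding RNA of an imprinted domain, was at 5.93, 5.43 and 5.64 CPM on day −2, 11.4, 10.6 and 8.45 on day 0 and 5.60, 5.56 and 3.82 on day +2 in the control, and its bend was 0.55 (standard error 0.14, edgeR adjusted p = 0.0033) in MMP2sh1 and 0.85 (standard error 0.13, edgeR adjusted p = 3.6e-06) in MMP2sh2. Without replicate 1 of day 0 the bend in MMP2sh1 was 0.45 (edgeR adjusted p = 0.055).

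The gene types of the members were read from the GENCODE annotation. Of the 57 peak genes matched to it on GRCh37, 46 were protein coding (80.7%), 6 pseudogenes (10.5%) and 4 labelled lncRNA, for long noncoding RNA (7.02%). Of the 11412 matched expressed genes, 96.3% were protein coding, 1.68% pseudogenes and 1.71% labelled lncRNA. Genes labelled lincRNA, such as the peak gene LA16c-83F12.6, were not counted with these. Of the 51 matched dip genes 48 were protein coding (94.1%). In the knockdown lines the peak was called in both for 30 of the 46 protein-coding peak genes and for 8 of the other 20. Those 20 were of another type or not matched, so the type of some of them is unknown. They were expressed at a median of 5.35 CPM in the control, against 10.6 for the protein-coding peak genes. The share of reads that fell on no gene moved in the same way in the control, at 6.56% to 6.60% on day −2, 8.42% to 9.14% on day 0 and 7.53% to 7.93% on day +2. In MMP2sh1 it was 5.89% to 6.78% on day −2, 8.12% to 8.25% on day 0 and 8.06% to 8.52% on day +2. In MMP2sh2 it was 5.69% to 7.10% on day −2, 7.79% to 8.01% on day 0 and 8.15% to 8.79% on day +2. Its part in the counts of these genes was not tested.

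Some members cannot be counted apart. ANKRD36, ANKRD36B, ANKRD36C and ANKRD20A8P share long stretches of sequence, CTC-338M12.4 overlaps TRIM52 on the opposite strand of chromosome 5 and the counting did not use strand, and RPL7P1, TUFMP1 and RPLP0P2 are copies of expressed genes. These were listed as separate genes by the rule. The 5 zinc finger genes on the list of that name, ZNF492, ZNF519, ZNF675 and ZNF738 with a peak and ZNF324 with a dip, were 5 of the 410 expressed there. ZNF519 alone among the 4 peaked in both knockdown lines (0.70 in MMP2sh1 and 0.46 in MMP2sh2).

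The same genes were then followed in the knockdown lines as groups. By the rule itself, applied to the line's own CPM, 26 of the 66 peak genes peaked in MMP2sh1 and 13 in MMP2sh2, where 0.624% and 0.305% of the expressed genes did. Of the 52 dip genes, 26 dipped in MMP2sh1 and 17 in MMP2sh2, beside 0.453% and 0.437%. These shares are of genes with a mean CPM of 2 or more at every stage of that line. In MMP2sh1 that floor was met by 58 of the peak genes and 52 of the dip genes, and in MMP2sh2 by 63 and 51. The 26 shared peak genes were 39.4% of the control's and 32.5% of the 80 of MMP2sh1, and the 26 shared dip genes were 50% of the control's and 44.8% of the 58 of MMP2sh1. All 3 lines had 8 peak and 14 dip genes in common, among them LGR4, EFEMP1 and KCNQ1OT1 with a peak and IL32 and MMP9 with a dip.

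By test, both steps were called in the direction of the control for 35 of the 66 peak genes in MMP2sh1 and 28 in MMP2sh2, beside 3.08% and 3.14% of all genes tested. For the dip genes it was 38 and 32 of 52, beside 3.71% and 3.26%. All 118 members passed the filter on low counts in both lines. A total of 24 peak and 30 dip genes had both steps called in both lines, and 27 and 12 in neither. The shares of all genes are for each line alone. None was counted for both lines together, so these joint counts have no background beside them. The 2 steps share the day 0 libraries and are not independent of each other. Among the 12884 genes expressed in the control, the level the members had to meet, both steps were called in the peak direction for 4.01% in MMP2sh1 and 4.18% in MMP2sh2, and in the dip direction for 5.11% and 4.35%.

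The bend, a single contrast over 9 libraries, was called for 47 and 42 peak genes, beside 12.9% and 12.3% of all genes tested, and for 46 and 39 dip genes, beside 12.8% and 12%. Among the 12884 genes expressed in the control it was called as a peak for 17.4% in MMP2sh1 and 16.8% in MMP2sh2, and as a dip for 17.9% and 16.1%. In both lines it was called for 38 peak and 39 dip genes, and in neither for 15 and 6. For these joint counts, too, no share of all genes was counted. With all libraries in the fit, no member had a bend called against the control's direction, but without replicate 3 of day −2 the bend of the dip gene MT-ND3 in MMP2sh2 was called upward (0.18, edgeR adjusted p = 0.0052). The median fitted bend was 0.55 in MMP2sh1 and 0.41 in MMP2sh2 for the peak genes, and −0.76 and −0.61 for the dip genes. A called bend alone does not make a turn, since a gene that is flat and then rises also has one.

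**Figure D4:**
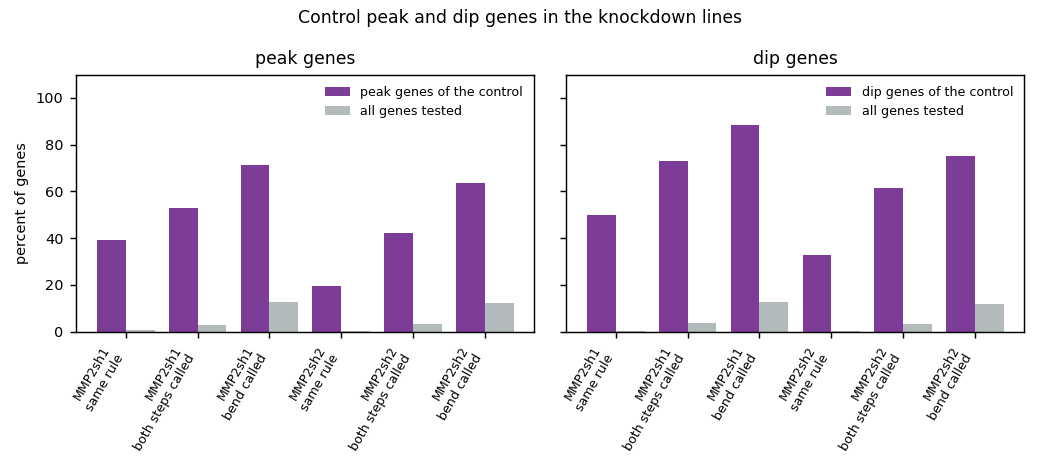
Percent of the 66 peak genes (left) and 52 dip genes (right) that met the choosing rule, had both steps called or had the bend called in MMP2sh1 and MMP2sh2, beside the percent of all genes examined; bars start at 0. For each measure the members' bar is several times the background bar (for example 26 of 52 dip genes against 0.453% by the rule in MMP2sh1), and the members' bars of MMP2sh2 are lower than those of MMP2sh1.

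For some members the turn was not called in either knockdown line. DIO2, which encodes a deiodinase that activates thyroid hormone, was at 8.59, 9.23 and 7.06 CPM on day −2, 2.49, 3.05 and 2.42 on day 0 and 3.11, 4.05 and 4.78 on day +2 in the control, at 11.4, 9.93 and 6.98 CPM on average in MMP2sh1 and at 5.28, 5.04 and 3.84 CPM in MMP2sh2, and its bend was 0.11 in MMP2sh1 and 0.15 in MMP2sh2, called in neither. NRXN3, a neurexin, was at 16.98, 19.5 and 17.5 CPM on day −2, 7.14, 9.25 and 9.42 on day 0 and 14.8, 15.5 and 17.1 on day +2 in the control and at 18.3, 20.4 and 26.1 CPM and 16.4, 13.1 and 10.9 CPM on average in the knockdown lines, with bends of −0.14 in MMP2sh1 and −0.04 in MMP2sh2. DIO2 and NRXN3 lie 329234 bases apart on chromosome 14. HK2, the hexokinase of the first step of glycolysis, was at 33.2, 32.4 and 32.6 CPM on day −2, 22.8, 23.6 and 20.9 on day 0 and 31.9, 44.4 and 48.7 on day +2 in the control. In the knockdown lines it fell at both steps, with means of 35.4, 27.7 and 24.1 CPM and 32.3, 28.8 and 22.7 CPM, and all 4 steps were called downward. Other genes of the hypoxia and glycolysis list had 7 called dips and 11 called peaks of 37 in MMP2sh1 and 4 and 11 of 35 in MMP2sh2, beside 12.8% and 12% of all tested genes with a called dip and 12.9% and 12.3% with a called peak.

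MT-ND3, a mitochondrially encoded subunit of respiratory complex I, was the most abundant dip gene, at 884, 955 and 682 CPM on day −2, 613, 522 and 597 on day 0 and 867, 824 and 789 on day +2 in the control. Its bend was −0.33 (standard error 0.07, edgeR adjusted p = 0.0012) in MMP2sh1 and 0.12 (standard error 0.06, edgeR adjusted p = 0.15) in MMP2sh2. Mitochondrial genes together took 4.67% to 5.42% of the counts on day 0 in the control, against 4.16% to 5.30% on day −2 and 5.49% to 6.37% on day +2, so their summed share did not follow the same course. Among the peak genes, SHISA3 (4.67, 7.91 and 5.57 CPM in the control), RPL7P1 (3.98, 7.69 and 4.34 CPM) and KCNA2 (2.77, 3.99 and 2.17 CPM) had bends of −0.27 in MMP2sh1 and 0.07 in MMP2sh2, of 0.07 in MMP2sh1 and 0.22 in MMP2sh2 and of 0.05 in MMP2sh1 and 0.09 in MMP2sh2, none called. In RPL7P1 a single control library of day 0 stood far above the rest (6.54, 4.56 and 11.97 CPM).

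The size of the bend differed between MMP2sh1 and MMP2sh2 for 6 peak and 2 dip genes, beside 0.282% of all genes tested. It was larger in MMP2sh1 for LGR4, LDLRAD4, RNF150, EPHA5 and HAPLN1 and larger in MMP2sh2 for PDE1C, and the dips of MMP9 and MT2A were deeper in MMP2sh1. EPHA5, an ephrin receptor, showed the largest difference of the peak genes. It was at 7.92, 8.39 and 6.77 CPM on day −2, 14.3, 13.2 and 12.8 on day 0 and 8.79, 8.77 and 9.26 on day +2 in the control, at 8.44, 9.13 and 9.16 CPM on day −2, 16.7, 14.9 and 14.7 on day 0 and 6.30, 5.32 and 6.19 on day +2 in MMP2sh1 and at 10.2, 9.49 and 8.61 CPM on day −2, 10.7, 9.51 and 11.1 on day 0 and 9.03, 8.68 and 9.45 on day +2 in MMP2sh2. Its peak was plain in MMP2sh1 and its libraries overlapped in MMP2sh2, with a bend of 1.05 (standard error 0.10, edgeR adjusted p = 8e-09) in MMP2sh1 and 0.16 (standard error 0.10, edgeR adjusted p = 0.27) in MMP2sh2. The difference was 0.88 (standard error 0.14, edgeR adjusted p = 0.0006). Because MMP2 was lower in MMP2sh1 than in MMP2sh2 and each hairpin was in 1 line, the level of MMP2 and the line cannot be told apart in this comparison.

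**Figure D5:**
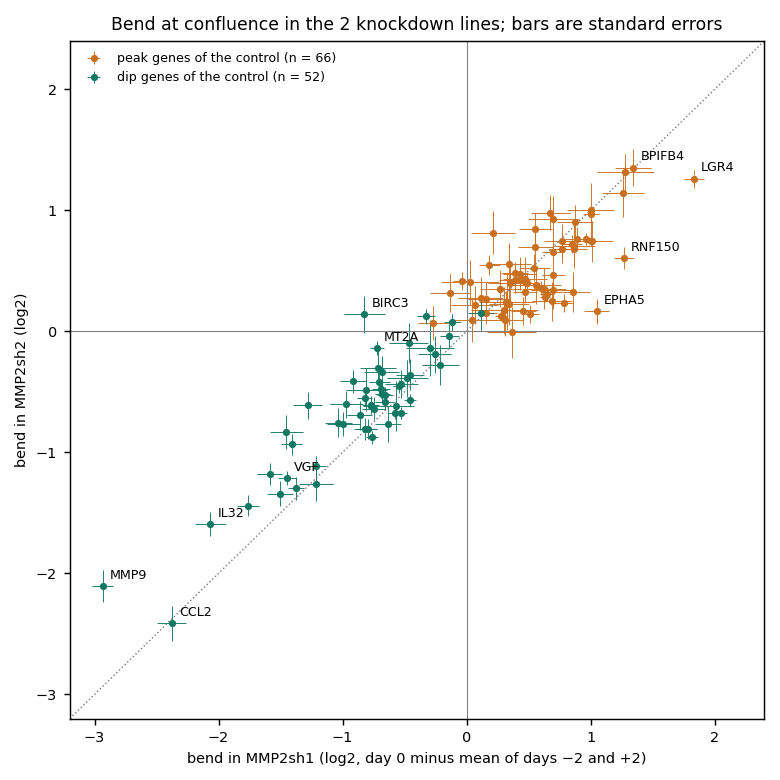
Fitted bend (log2) of each member in MMP2sh1 (horizontal) and MMP2sh2 (vertical) with standard errors, for 66 peak and 52 dip genes; the dotted line marks equal bends. Peak genes lie mostly in the upper right and dip genes in the lower left, with LGR4, RNF150, EPHA5 and MMP9 off the line on the side of a larger bend in MMP2sh1 and BIRC3 above 0 in MMP2sh2.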

How the data were processed

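Per the submitters' processing notes and the methods, reads went through Trim Galore 0.6.0, STAR 2.7.3a (genome hg19) and exon counting in HTSeq 2.0.0 (minimum quality 10, without strand, union mode). The authors deposited unscaled read counts for 55882 gene symbols, 14525 of them without a read. The 5 summary lines, 16.8% to 19.1% of a library, were left out.

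CPM was the count over the total on genes. Steps were fitted on 6 libraries, bends on 9 and their difference on 18 with edgeR 4.0.16 in R 4.3.3 (TMM, filterByExpr with minimum count 10 and total 15, quasi-likelihood test, two-sided, Benjamini-Hochberg over all genes tested, called at adjusted p under 0.05). The standard error is the size of the log2 change over the root of F. Fits were tested on simulated data.

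The members and lists were chosen with earlier results of these data known. Genes named were the 10 of each class with the largest smaller step, the 5 most abundant, those on lists, those at the threshold, the 3 least like the control and the 3 differing most between knockdown lines. Others, such as RNF150, were chosen after their values were seen. A peak gene and a gene near the threshold are not reported here by name. No pairing of libraries by replicate number was seen. Positions are from GENCODE on GRCh37. Alternatives were other scalings, filters and thresholds, DESeq2 1.42.0, 1 fit of 27 libraries, a replicate block and libraries left out.

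The methods call the replicates independent, so p-values measure the spread between cultures of 1 line.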

Additional observations from a re-analysis of the deposited data

Results flagged for a closer look

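The bend at confluence of 8 members differed between the knockdown lines in the fit of 18 libraries, and each was singled out by that test. For 5 peak genes the bend was larger in MMP2sh1, by 0.57 (standard error 0.12, edgeR adjusted p = 0.015) for LGR4, 0.54 (standard error 0.11, edgeR adjusted p = 0.015) for LDLRAD4, 0.66 (standard error 0.13, edgeR adjusted p = 0.014) for RNF150, 0.88 (standard error 0.14, edgeR adjusted p = 0.0006) for EPHA5 and 0.34 (standard error 0.06, edgeR adjusted p = 0.0022) for HAPLN1. PDE1C, which encodes a calmodulin-regulated phosphodiesterase, went the other way, with −0.45 (standard error 0.10, edgeR adjusted p = 0.039), and was at 21.5, 20.8 and 19.6 CPM on day −2, 18.4, 17.5 and 16.7 on day 0 and 14.2, 14.5 and 15.7 on day +2 in MMP2sh1 and at 20.997, 20.6 and 21.1 CPM on day −2, 22.9, 25.8 and 23.8 on day 0 and 15.6, 15.6 and 15.4 on day +2 in MMP2sh2. LDLRAD4, an inhibitor of TGF-beta signalling, was at 17.8, 21.4 and 20.4 CPM on day −2, 33.4, 37.5 and 39.8 on day 0 and 23.3, 20.4 and 21.8 on day +2 in MMP2sh1 and 28.9, 23.4 and 22.6 CPM on day −2, 30.8, 27.6 and 32.9 on day 0 and 26.3, 27.2 and 25.5 on day +2 in MMP2sh2. Its bend in MMP2sh2 was 0.24 (standard error 0.07, edgeR adjusted p = 0.019), with an adjusted p of 0.072 without replicate 1 of day 0 and 0.17 without replicate 3 of day 0. RNF150, a ubiquitin ligase of the RING type, was at 19.2, 22.4 and 16.9 CPM on day −2, 37.1, 38.4 and 41.8 on day 0 and 12.8, 14.4 and 11.2 on day +2 and 24.5, 17.99 and 16.97 CPM on day −2, 28.96, 24.4 and 25.2 on day 0 and 15.1, 13.4 and 15.5 on day +2. The dips of MMP9 and MT2A were deeper in MMP2sh1, by −0.83 (standard error 0.17, edgeR adjusted p = 0.015) and −0.59 (standard error 0.09, edgeR adjusted p = 0.00042). Only MT2A, EPHA5 and HAPLN1 of the 8 had an adjusted p below 0.01. Without MMP2sh1 replicate 3 of day 0, or without MMP2sh2 replicate 2 of day 0, 2 of the 66 peak genes differed in place of 6.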

How the results depend on the processing

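The number of members followed the thresholds. With a mean of 1 CPM or more the rule gave 135 peak genes, with 5 or more 32 peak and 34 dip genes, and with no minimum 2578 and 1697; with a step of 0.4 it gave 129 and 86, and with 0.6 it gave 34 and 25. With the members at a step of 0.6, both steps were called for 19 peak and 21 dip genes in MMP2sh1 and 17 and 20 in MMP2sh2, and the bend for 26 and 23 in MMP2sh1 and 25 and 22 in MMP2sh2. With members at 5 CPM the bend was called for 29 peak genes in MMP2sh1. The members are then fewer by construction. The dip genes whose bend differed between the knockdown lines were 5 with DESeq2, 6 without a filter, 4 with 10 counts in every library and 5 with 27 libraries in 1 fit. With libraries left out in turn they ranged from 2 to 5 (5 without MMP2sh1 replicate 1 of day −2, 4 without MMP2sh1 replicate 2 of day +2 or MMP2sh2 replicate 2 of day −2), and the peak genes from 2 to 7. The causes were not tested. Of the named genes' uncalled bends, that of ZNF675 in MMP2sh2 turned from −0.01 to 0.0033 with total count scaling and 0.016 with all 27 libraries. With libraries left out it ranged from −0.29 to 0.14, RPL7P1 in MMP2sh1 from −0.13 to 0.22, KCNA2 from −0.098 to 0.21 in MMP2sh1 and from −0.0028 to 0.18 in MMP2sh2, NRXN3 in MMP2sh2 from −0.11 to 0.060 and BIRC3 in MMP2sh2 from −0.0099 to 0.34. With 1 library left out, bends of named genes that lost their call were those of ENC1, LDLRAD4 and ZNF324 in MMP2sh2 and of KCNQ1OT1, PDZRN3 and ZNF738 in MMP2sh1, with edgeR adjusted p up to 0.17 for ENC1, 0.17 for LDLRAD4, 0.22 for ZNF324, 0.055 for KCNQ1OT1, 0.11 for PDZRN3 and 0.17 for ZNF738. Those that gained one were MT-ND3, MT2A, MFNG, ZNF738, ANKRD26P1 and GUSBP3 in MMP2sh2, with edgeR adjusted p down to 0.0052, 0.013, 0.046, 0.044, 0.041 and 0.047, and GUSBP3 in MMP2sh1, with 0.045.

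Same-numbered libraries did not deviate together (correlations of −0.079 to 0.086, none of 9 per line above 0.1), so no pairing by number was seen. These correlations cannot exclude that same-numbered libraries were handled together. With the replicate number as a block, both steps were called for 36 peak and 39 dip genes in MMP2sh1 and 28 and 32 in MMP2sh2, the bend for 46 and 46 in MMP2sh1 and 42 and 38 in MMP2sh2, and the bend differed between the lines for 5 peak and 2 dip genes. Under the block the bend of ZNF675 in MMP2sh2 was 0.0024.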

Other observations

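Genes outside the members that bent at confluence in the knockdown lines fell into some of the other lists. Of the 35 immediate early genes tested in MMP2sh1 besides ARC, 21 had a called dip and 4 a called peak, and of 34 in MMP2sh2, 16 and 4, with median bends of −0.36 and −0.35. The dips included FOS, JUNB, EGR1, IER2 and ZFP36 in both lines, and the peaks FOSL2, DUSP1, MYC and RND3. Of 42 genes of the amino acid and integrated stress response list besides CHAC1 and PPP1R15A, 24 had a called dip in MMP2sh1 and 22 in MMP2sh2. The dips called in both lines included ATF4, DDIT3, TRIB3, ASNS and SESN2, and 3 and 2 genes had a called peak. Background shares of called genes are those given for the bend above.

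Genes of cell division bent the other way. Of 46 DNA replication genes, 35 had a called peak in MMP2sh1 and 32 in MMP2sh2, with none called as a dip and median bends of 0.21 in both. Of 41 mitosis genes, 30 and 29 had a called peak and none a dip, with median bends of 0.22 and 0.21. None of these genes met the step size of the rule in the control. Among 52 clustered protocadherin genes tested in MMP2sh1, 14 had a called dip, and among 50 in MMP2sh2, 17, with no called peak. The genes of the alpha cluster share exons with one another, as do those of the gamma cluster, so single members there are uncertain.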
